A study of Homo sapiens with 4 samples.

Results

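The genes described here are 40 classical androgen-response genes outside the kallikrein family, followed in LNCaP cells, a line derived from a lymph node metastasis of human prostate cancer. They were chosen by name as well-known responders to androgen, by a rule that uses no measured value but was made with earlier results of these data known, and make up 40 of the 60675 genes counted. RNA was sequenced from 4 cultures grown in phenol red-free medium with hormone-depleted serum, and all of them received 1 nM of the synthetic androgen R1881 for 72 h. Vehicle (dimethyl sulfoxide) was added in 2 cultures and 50 µM CPI-455, an inhibitor of the KDM5 family of histone demethylases, in the other 2. Androgen was thus present in both groups and no library without androgen was analysed here, so the comparison asks how CPI-455 shifts these genes under androgen and does not measure their induction. LNCaP is a single established line, the inhibitor acts on several KDM5 enzymes, and 1 dose and 1 time were sequenced.

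Androgen acts, like other steroids, through a nuclear receptor that is held ready by HSP90 and its co-chaperones, moves to the nucleus and docks on DNA at androgen response elements. These elements are inverted repeats of the hexamer AGAACA with a short spacer, and they are shared in large part with the glucocorticoid receptor. In luminal prostate cells androgen drives secreted proteins, transporters, metabolic enzymes and feedback regulators, while a smaller group of genes is held down by androgen. KDM5 enzymes remove methyl groups from histone H3 at the starts of active genes.

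The deposited values were counts of sequenced fragments per gene. The vehicle libraries held 19623553 and 20690819 counts and the CPI-455 libraries 9522920 and 5401588, so a count of 3 equals 0.137 to 0.142 CPM in the vehicle libraries and 0.337 to 0.595 CPM in the CPI-455 libraries. CPM stands for counts scaled to a common library size after correction for composition. A gene was called lower or higher when its false discovery rate (FDR, edgeR quasi-likelihood test) was below 0.05 and its change at least 2-fold. Fold changes are CPI-455 over vehicle on the log2 scale, and negative values mean less RNA with CPI-455. The luminal identity of the line was checked on 8 luminal markers, whose summed level was 872 and 804 CPM with vehicle, against 334 and 383 CPM with CPI-455, with 6 of the 8 called lower. The 4 basal markers summed to 0.189 to 1.24 CPM, with KRT5 and KRT15 at 0 counts in all libraries. Stromal markers summed to 4.30 to 10.7 CPM, leukocyte markers to 2.18 to 6.30 CPM and neuroendocrine markers to 24.2 to 41.2 CPM. The highest sum of the basal list and of each of these 3 lists lay with CPI-455, but so did the lowest leukocyte sum. The basal sums with CPI-455 rested on 11 counts of KRT14 in replicate 1 and 6 counts of TP63 in replicate 2. Single markers were called in both directions, the stromal COL1A1 higher (log2 1.00) and the neuroendocrine CHGA lower (−1.32). Both were named after their values were seen. COL1A1 was the only stromal marker tested. The other tested neuroendocrine markers, SYP (0.694) and INSM1 (0.751, FDR 0.0291), lay on the higher side and were not called. The part of these cell markers in the results was not tested. In RNA from whole cultures, fewer cells of a kind and less RNA per cell cannot be told apart.

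Sequence near the starts of these genes is shown first, because the androgen receptor docks on the element described above. Whether the members respond to androgen through it was not tested. Promoters from RefSeq (GRCh38.p14, 250 bases before and 50 after a transcript start) were matched for 30 of the 40 genes, 61 promoters in all. They were searched on both strands for the half-site AGAACA or its complement TGTTCT. It was present in 8 of 61 member promoters (13.1%), beside 14.8% of 35116 promoters of the same length. The full element, AGAACA and TGTTCT with 3 free bases between them, exact or with 1 mismatch in its 12 fixed letters, was in 0 of the 61 and, within 1 mismatch, in 0.165% of all promoters. A match is a description of letters and not a binding site, and no match says only that these letters are missing from this window. The half-site stood in promoters of LIFR, TRPM8, PMEPA1, FKBP5, STK39, SGK1 and MICAL1, which include genes called lower, called higher and not called. Below are 4 of these promoters, 5′ to 3′ on the gene's strand, with the half-site in capitals. The first 3 belong to genes that fell and the last to a gene that rose, and each printed promoter carries the hexamer on one strand or the other. Each of these 4 genes also has at least 1 other matched promoter without the half-site.
FKBP5 (chr6:35728534-35728833, minus strand): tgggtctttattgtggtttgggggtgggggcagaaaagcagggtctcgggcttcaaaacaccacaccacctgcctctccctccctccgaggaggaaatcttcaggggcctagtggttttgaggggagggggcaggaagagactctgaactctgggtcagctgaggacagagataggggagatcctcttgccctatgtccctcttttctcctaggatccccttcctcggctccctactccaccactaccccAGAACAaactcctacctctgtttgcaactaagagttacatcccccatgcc
PMEPA1 (chr20:57710528-57710827, minus strand): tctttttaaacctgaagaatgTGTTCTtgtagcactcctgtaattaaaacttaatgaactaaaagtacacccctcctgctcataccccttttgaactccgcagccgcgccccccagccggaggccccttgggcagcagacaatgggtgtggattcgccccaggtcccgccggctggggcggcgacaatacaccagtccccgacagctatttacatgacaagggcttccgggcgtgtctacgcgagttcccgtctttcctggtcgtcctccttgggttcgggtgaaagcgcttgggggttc
LIFR (chr5:38557418-38557717, minus strand): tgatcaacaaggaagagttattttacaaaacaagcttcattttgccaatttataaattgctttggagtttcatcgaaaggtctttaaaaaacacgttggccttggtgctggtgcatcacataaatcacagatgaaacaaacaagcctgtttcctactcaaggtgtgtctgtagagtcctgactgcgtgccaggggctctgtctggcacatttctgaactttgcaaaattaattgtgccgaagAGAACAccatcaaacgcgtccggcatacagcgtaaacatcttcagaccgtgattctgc
MICAL1 (chr6:109465919-109466218, minus strand): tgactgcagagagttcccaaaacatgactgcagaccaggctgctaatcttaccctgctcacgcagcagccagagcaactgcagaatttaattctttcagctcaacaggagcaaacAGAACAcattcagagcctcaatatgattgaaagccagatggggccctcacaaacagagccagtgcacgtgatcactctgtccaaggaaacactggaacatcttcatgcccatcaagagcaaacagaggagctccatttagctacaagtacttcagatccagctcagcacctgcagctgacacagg

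A wider window was searched for the full element. The gene start used here is the outer end of the annotated gene, which can lie far from the transcript starts of the promoters above. For LIFR it is chr5:38608354, while the promoter printed above lies at chr5:38557418-38557717. Within 50 kb on either side of the gene start (GRCh38), a match with at most 1 mismatch was found for 16 of 40 members (40%) and for 34.3% of 17566 tested genes, and an exact match for 1 member (2.5%) and 1.81% of tested genes. For ADAM7, which had no matched promoter entry, a match with 1 mismatch lay directly before the gene start. The share was 7 of 18 members called lower, 2 of 3 called higher and 6 of 16 tested but not called. For 5 called members 1 element each is written below, and other matches of called members are not printed. Letters that match the consensus are in capitals and the spacer or mismatch in lower case. These 5 are shown because both genes that fell and genes that rose have such a match in this window.
LRIG1, the exact match, 9.8 kb upstream (chr3:66511024-66511038): AGAACAccaTGTTCT
LIFR, 1.7 kb upstream (chr5:38610063-38610077): AGAACAgaggGTTCT
C1orf116, 22.6 kb downstream of the start and outside the gene (chr1:207010176-207010190): AGAACAgggTGTgCT
MICAL1, in an exon 14.3 kb downstream of the start (chr6:109451674-109451688): AGAACAttgTGTaCT
TSC22D3, in an intron 9.5 kb downstream of the start (chrX:107767844-107767858): AGAACAtacTGTgCT

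Most of the androgen-response genes that changed had less RNA with CPI-455. Of the 40 genes, 37 passed the filter on low counts, and of these 18 were called lower (48.6%), 3 were called higher (8.11%) and 16 were not called. Among all 17600 tested genes 21.3% were called lower and 21.0% higher, and among the 13813 tested protein-coding genes 24.4% and 15.6%. Called in either direction were 21 of the members and 42.4% of all tested genes. By the FDR alone, with no minimum fold, 23 members were lower and 3 higher, beside 32.8% and 29.8% of all tested genes. The median change of the 37 was −1.28 (interquartile range −1.76 to −0.05), beside −0.04 (−0.96 to 0.94) over all tested genes and −0.21 over protein-coding genes. The vehicle libraries were both above the CPI-455 libraries for 26 of the 37 and both below for 5, where 42.8% and 39.1% of all tested genes are separated in these directions. Members seen almost only with vehicle pass the filter through that group alone. With at least 10 counts required in every library, 29 members remained, of which 12 were lower and 3 higher, beside 2669 lower and 2976 higher of 13590 genes.

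**Figure D1:**
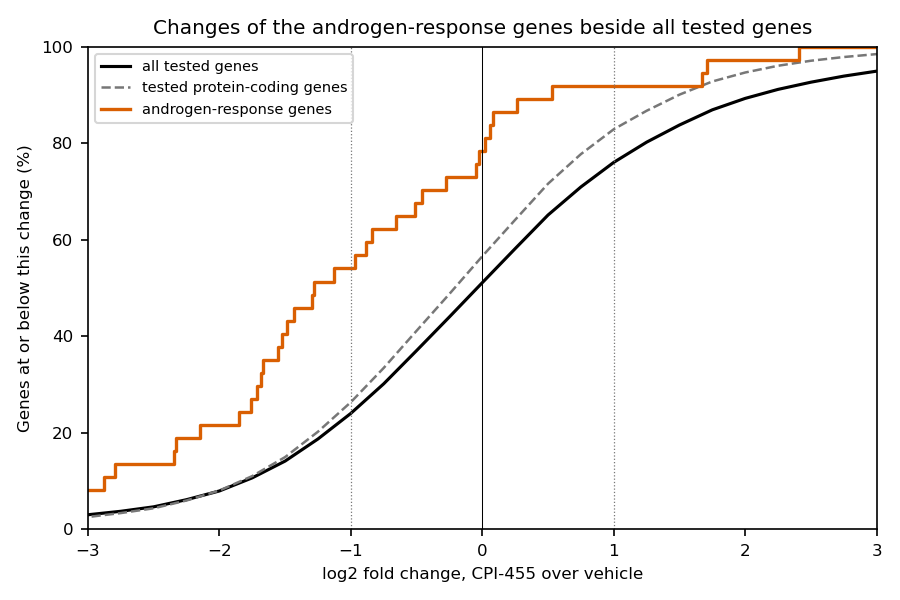
Cumulative share of genes (y axis, percent) at or below each log2 fold change of CPI-455 over vehicle (x axis), for the 37 tested androgen-response genes, all 17600 tested genes and the tested protein-coding genes; dotted lines mark a 2-fold change. The androgen-response curve lies to the left, with 54.1% of its genes at −1 or below where all tested genes have 24.01%, and 8.11% of its genes, among them PTGER4, lie left of the axis.

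The calls by role are read beside the 21.3% of all tested genes called lower and the 21.0% called higher. Receptors at the cell surface were lower in 4 of 4 tested genes, the chaperone and feedback genes in 2 of 2, the secreted proteins in 2 of 2, and the metabolic enzymes in 3 of 5. Transporters and surface proteins were lower in 2 of 5 and the kinases and signalling proteins in 2 of 9, with 1 higher. The transcription and elongation factors were divided, with 2 lower and 2 higher of 7. The other products were lower in 1 of 3. PTGER4, ACP3, HPGD and C1orf116, each called lower, passed the filter on low counts only through the vehicle libraries, where they are high. These counts are a description, and differences between roles were not tested.

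**Figure D2:**
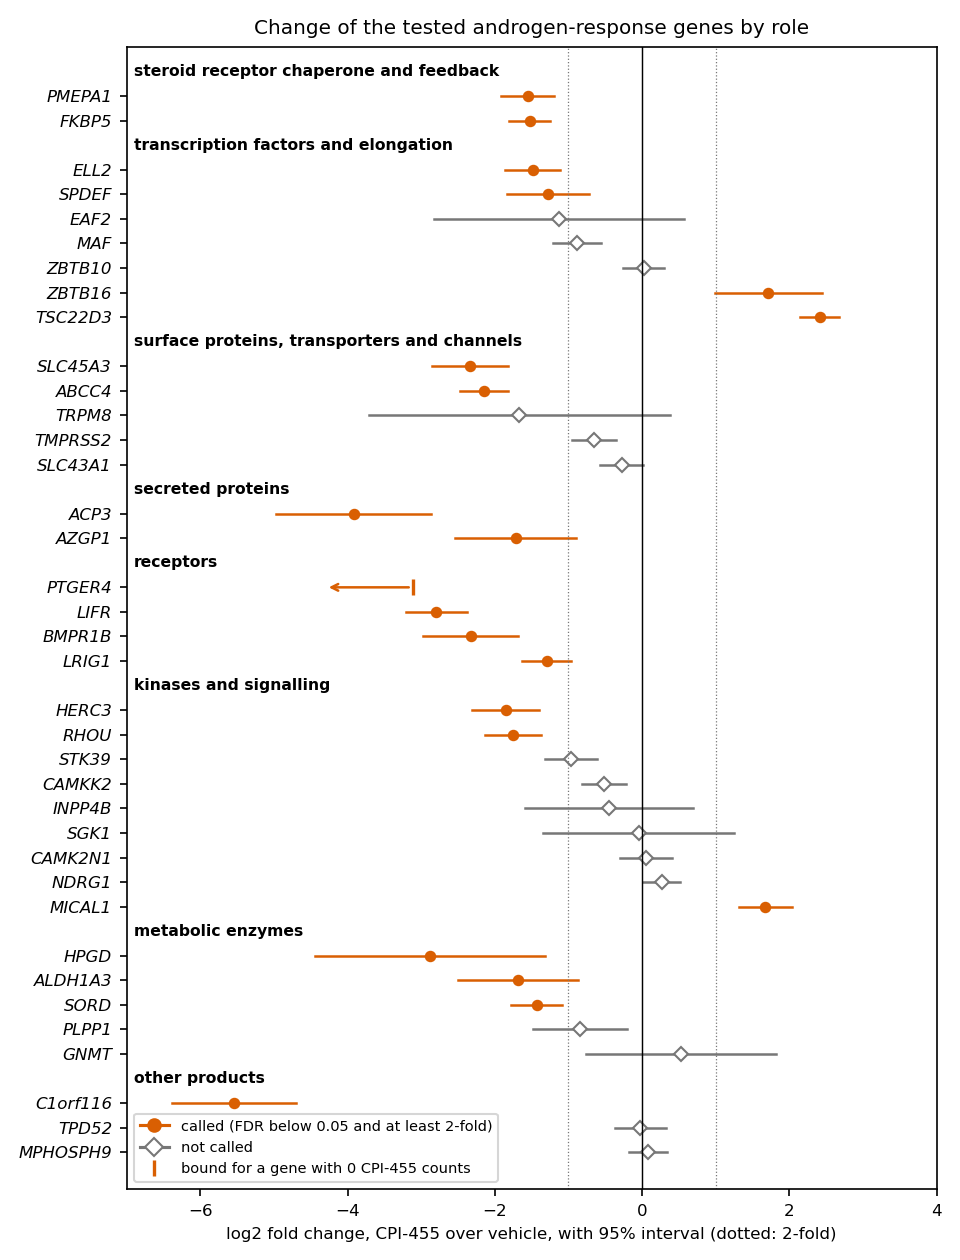
Log2 fold change of CPI-455 over vehicle (x axis) with its 95% interval for each of the 37 tested genes, grouped by role; filled circles are called genes, open diamonds are not called, and the tick with an arrow is the bound for PTGER4, which had 0 counts with CPI-455. All points of the receptors and secreted proteins lie left of the −1 line, while TSC22D3, ZBTB16 and MICAL1 are the only called genes on the right.

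FKBP5 (ENSG00000096060, chr6:35573585-35728583, minus strand), an HSP90 co-chaperone that acts back on steroid receptors, had 2991 and 3256 counts with vehicle, against 430 and 267 with CPI-455. This equals 142 and 149 CPM against 48.4 and 52.9 CPM, with the groups well apart and the replicates close. FKBP5 fell 2.88-fold, by 1.53 on the log2 scale (SE 0.12, FDR 7.92e-06). PMEPA1 (chr20:57648392-57711536, minus strand), an adaptor for NEDD4-type ubiquitin ligases that limits TGF-beta signalling, had 1110 and 1108 counts with vehicle, against 154 and 90 with CPI-455. Its levels were 52.6 and 50.7 CPM against 17.3 and 17.9 CPM, so the replicates of each group nearly coincided. PMEPA1 fell 2.94-fold (log2 −1.56, SE 0.16, FDR 2.74e-05). When the trend of fold change with exon length and GC content over all genes was removed, the change of FKBP5 was −1.01, still called.

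Receptors held some of the widest gaps. LIFR (ENSG00000113594, chr5:38474963-38608354, minus strand), the receptor of leukaemia inhibitory factor, had 1564 and 1491 counts with vehicle, against 102 and 43 with CPI-455, or 74.1 and 68.3 CPM against 11.5 and 8.53 CPM. It fell 6.95-fold (log2 −2.80, 95% interval −3.21 to −2.38, FDR 2.54e-06). BMPR1B (chr4:94757968-95158448, plus strand), a type I receptor of bone morphogenetic proteins, had 324 and 302 counts against 24 and 16, or 15.3 and 13.8 CPM against 2.70 and 3.17 CPM. It fell 5.03-fold (log2 −2.33, SE 0.29, FDR 0.0001). LRIG1 (chr3:66378797-66501263, minus strand), a membrane protein that restrains ERBB receptors and carries the exact element upstream, was more abundant and moved less. It had 1471 and 1739 counts with vehicle, against 285 and 143 with CPI-455, and its 69.6 and 79.6 CPM became 32.0 and 28.4 CPM. The fall was 2.46-fold (log2 −1.30, SE 0.15, FDR 6.40e-05). PTGER4 (chr5:40679498-40693735, plus strand), the prostaglandin E2 receptor EP4, was low with vehicle, with 45 and 35 counts (2.13 and 1.603 CPM), and had 0 counts in both CPI-455 libraries. Against 3 counts over the CPI-455 group it was at least 8.65-fold lower (FDR 0.00251). All 4 receptors had both CPI-455 libraries below both vehicle libraries, as did 42.8% of all tested genes.

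Of 4 secreted proteins 2 could be tested, and both fell. Both had under 10 counts in a CPI-455 library, and ACP3 passed the filter on low counts only through the vehicle libraries. ACP3 (chr3:132317367-132368298, plus strand), prostatic acid phosphatase, had 165 and 218 counts with vehicle and 4 in each CPI-455 library, or 7.81 and 9.98 CPM against 0.450 and 0.793 CPM. It fell 15.1-fold, although with so few counts the 95% interval ran from −4.97 to −2.87 on the log2 scale (FDR 7.78e-05). AZGP1 (chr7:99966720-99976157, minus strand), zinc-alpha-2-glycoprotein, had 175 and 209 counts against 30 and 9, or 8.29 and 9.57 CPM against 3.37 and 1.79 CPM. It fell 3.29-fold (log2 −1.72, SE 0.37, FDR 0.00277), with the CPI-455 replicates further apart in proportion than the vehicle replicates, and without CPI-455 replicate 1 the change was −2.34. ORM1 (chr9:114323056-114326475, plus strand), the plasma protein orosomucoid, did not pass the filter. It had 25 and 9 counts with vehicle and 0 in both CPI-455 libraries, at least 3.68-fold lower against 3 counts over the group. ORM1 has a near-identical neighbour, ORM2, and fragments that fit both places were not counted. ADAM7, an ADAM family protein of the epididymis, had 17 and 11 counts against 2 and 0, a ratio of vehicle to CPI-455 of 4.54 (95% counting interval 1.15 to 39.3), and was not tested either.

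Surface proteins and transporters were divided between genes with wide gaps and genes with narrow ones. SLC45A3 (chr1:205657851-205680459, minus strand), the prostate transporter prostein, had 772 and 734 counts with vehicle, against 51 and 43 with CPI-455, or 36.6 and 33.6 CPM against 5.74 and 8.53 CPM. It fell 5.07-fold (log2 −2.34, SE 0.23, FDR 2.33e-05). ABCC4 (chr13:95019829-95301446, minus strand), an efflux pump for organic anions, had 2719 and 2561 counts against 227 and 153, or 129 and 117 CPM against 25.5 and 30.3 CPM. It fell 4.44-fold (log2 −2.15, SE 0.14, FDR 2.88e-06), and for both genes the CPI-455 libraries were far below the vehicle libraries. TMPRSS2 (ENSG00000184012, chr21:41464551-41531116, minus strand), the transmembrane serine protease whose androgen-driven promoter is often fused to ETS genes in prostate tumours, had a narrower gap. It had 1809 and 1720 counts with vehicle, against 439 and 278 with CPI-455, or 85.6 and 78.8 CPM against 49.4 and 55.1 CPM. The groups did not overlap and the FDR was 0.00206, but the change was 1.58-fold (log2 −0.66, 95% interval −0.96 to −0.36), whose interval stays short of 2-fold, so it was not called. SLC43A1, the amino acid transporter LAT3, was not called at −0.28 (FDR 0.0852). TRPM8, the cold- and menthol-gated channel, had few counts and unequal CPI-455 replicates, 0.112 and 1.39 CPM, and was not called at −1.67 (95% interval −3.71 to 0.38, FDR 0.138), and its change ran from −0.56 without CPI-455 replicate 1, not called, to −4.13 without CPI-455 replicate 2, called.

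Metabolic enzymes mostly had less RNA with CPI-455. SORD (chr15:45023104-45077185, plus strand), sorbitol dehydrogenase of the polyol pathway, had 1446 and 1452 counts with vehicle, against 203 and 139 with CPI-455, or 68.5 and 66.5 CPM against 22.8 and 27.6 CPM. It fell 2.70-fold (log2 −1.43, SE 0.15, FDR 4.13e-05), with the limit that fragments that also fit a near-identical pseudogene were not counted. HPGD (chr4:174490177-174523154, minus strand), which inactivates prostaglandins, had 63 and 106 counts against 2 and 5, or 2.98 and 4.85 CPM against 0.225 and 0.991 CPM. It fell 7.37-fold (log2 −2.88, SE 0.69, FDR 0.00539), but its call rested on vehicle replicate 2, without which the change was −2.40 and not called. Without CPI-455 replicate 1 its change was −1.995 and without CPI-455 replicate 2 it was −4.12, both called. ALDH1A3 (chr15:100877714-100916626, plus strand), a retinaldehyde dehydrogenase, had 173 and 184 counts against 28 and 9, or 8.19 and 8.43 CPM against 3.15 and 1.79 CPM. It fell 3.21-fold (log2 −1.68, SE 0.36, FDR 0.00289), and 28.5% of its exon bases are shared with another annotated gene, which makes its level less sure. PLPP1, a lipid phosphate phosphatase, passed the FDR at −0.84 (FDR 0.0269) without reaching 2-fold, and 28.4% of its exon bases are shared. GNMT, which consumes S-adenosylmethionine, had 2.70 and 2.52 CPM with vehicle and 1.80 and 6.15 CPM with CPI-455, so its CPI-455 libraries lay on either side of the vehicle libraries (log2 0.53, FDR 0.446), and without CPI-455 replicate 1 it was called higher at 1.22.

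Transcription and elongation factors moved in both directions. ELL2 (chr5:95885098-95962071, minus strand), a subunit of the super elongation complex, had 864 and 922 counts with vehicle, against 130 and 76 with CPI-455, or 40.9 and 42.2 CPM against 14.6 and 15.1 CPM. It fell 2.80-fold (log2 −1.49, SE 0.17, FDR 5.37e-05), and with the length and GC trend removed the change was −0.92 and the call was lost. SPDEF (chr6:34537802-34556333, minus strand), an ETS factor of the prostate epithelium, had 322 and 314 counts against 58 and 28, or 15.2 and 14.4 CPM against 6.52 and 5.55 CPM. It fell 2.42-fold (log2 −1.28, SE 0.25, FDR 0.00168). MAF, a basic leucine zipper factor, passed the FDR at −0.89 (FDR 0.000606) but not 2-fold. EAF2, the partner of ELL proteins, had about 1 CPM and was not called at −1.13 (95% interval −2.83 to 0.57), and ZBTB10, a zinc finger repressor, was at 0.02 (95% interval −0.25 to 0.29).

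TSC22D3 and ZBTB16 went the other way. TSC22D3 (ENSG00000157514, chrX:107713221-107777342, minus strand), the leucine zipper protein GILZ that glucocorticoids and androgens induce in many cells, had 4480 and 4360 counts with vehicle, against 10348 and 5160 with CPI-455, although the CPI-455 libraries were smaller. Its level rose from 212 and 200 CPM to 1164 and 1023 CPM, 5.31-fold (log2 2.41, 95% interval 2.15 to 2.67, FDR 7.33e-07). ZBTB16 (chr11:114059593-114250676, plus strand), the repressor PLZF, had 105 and 69 counts with vehicle, against 105 and 76 with CPI-455, or 4.97 and 3.16 CPM against 11.8 and 15.1 CPM. It rose 3.28-fold (log2 1.71, SE 0.32, FDR 0.00137). The groups did not overlap for either gene. TSC22D3 was the most abundant of the 40 per exon length in both groups, at 43.2 CPM per kb with vehicle and 229 with CPI-455, and it decided the summed level of the group. The 40 genes summed to 1909 and 1876 CPM with vehicle and 2194 and 2144 CPM with CPI-455, whereas without TSC22D3 they summed to 1697 and 1676 CPM against 1030 and 1121 CPM.

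**Figure D3:**
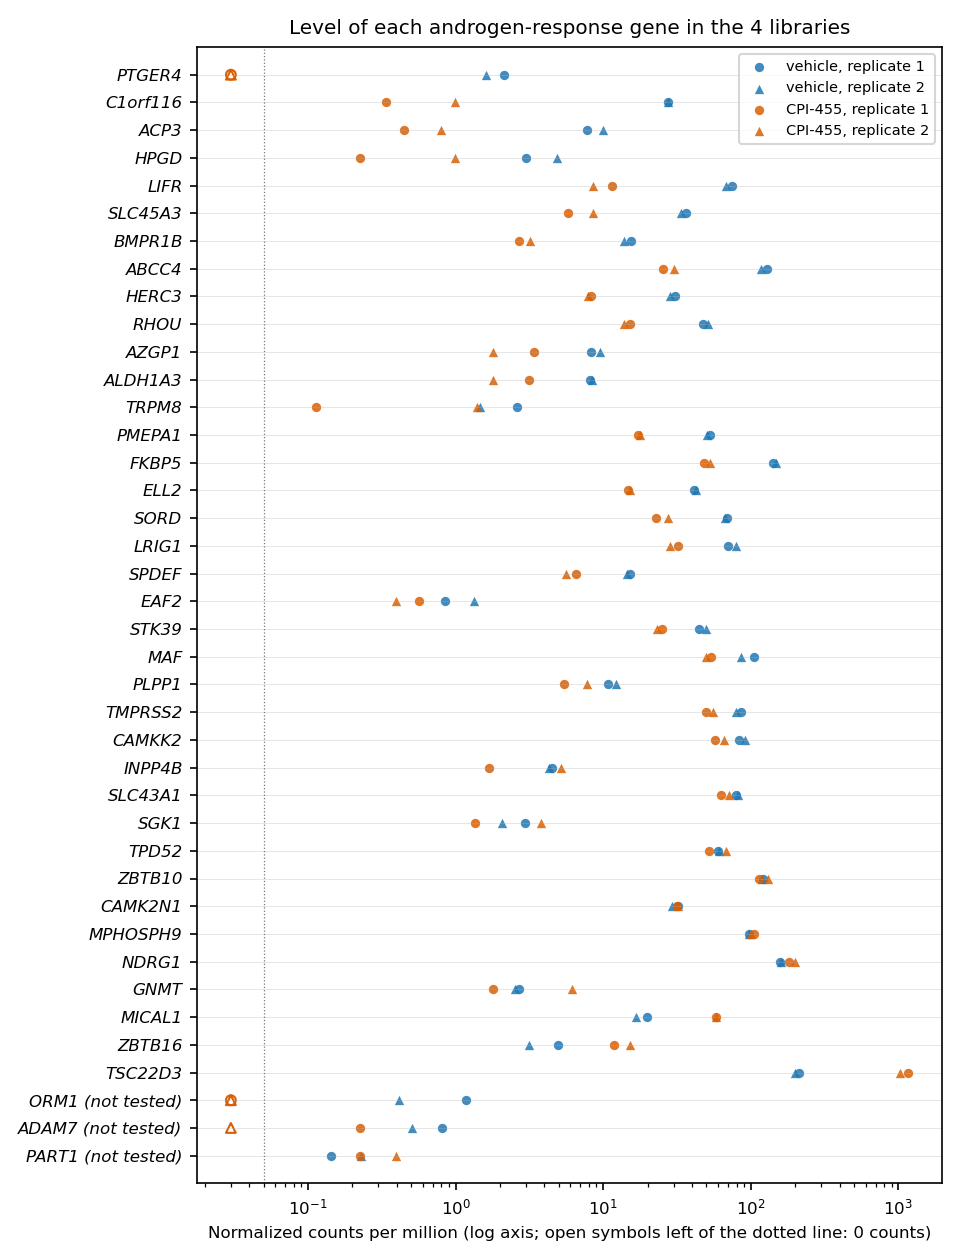
Normalised level (x axis, CPM, log scale) of each of the 40 genes in the 2 vehicle libraries (blue) and the 2 CPI-455 libraries (orange), with circles for replicate 1 and triangles for replicate 2; open symbols left of the dotted line mark 0 counts. Genes are ordered by fold change, so the orange symbols start far to the left for PTGER4 and C1orf116 and end to the right of the blue ones for MICAL1, ZBTB16 and TSC22D3.

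Among kinases and other signalling proteins 2 genes fell, 1 rose and 6 were not called. HERC3 (chr4:88521048-88708542, plus strand), a HECT-type ubiquitin ligase, had 646 and 621 counts with vehicle, against 74 and 40 with CPI-455, or 30.6 and 28.4 CPM against 8.32 and 7.93 CPM. It fell 3.62-fold (log2 −1.85, SE 0.20, FDR 4.40e-05), and 14.98% of its exon bases are shared with another gene. RHOU (chr1:228735077-228746669, plus strand), an atypical small GTPase, had 997 and 1127 counts against 135 and 70, or 47.2 and 51.6 CPM against 15.2 and 13.9 CPM. It fell 3.38-fold (log2 −1.76, SE 0.17, FDR 1.98e-05). MICAL1 (chr6:109444062-109465968, minus strand), a mono-oxygenase that takes actin filaments apart, rose instead. It had 419 and 365 counts with vehicle, against 520 and 293 with CPI-455, and its 19.8 and 16.7 CPM became 58.5 and 58.1 CPM, 3.19-fold more (log2 1.67, SE 0.16, FDR 1.93e-05).

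The signalling genes that were not called differed in how firmly that can be said. NDRG1, a stress- and differentiation-linked protein, had 3325 and 3495 counts with vehicle, against 1614 and 1010 with CPI-455, or 157 and 160 CPM against 182 and 200 CPM. Its interval of 0.01 to 0.52 (log2 0.26, FDR 0.0645) leaves out a 2-fold change in either direction. CAMK2N1 (chr1:20482391-20486220, minus strand), an inhibitor of CaMKII that is known as an androgen-repressed gene, had 680 and 640 counts against 283 and 162, or 32.2 and 29.3 CPM against 31.8 and 32.1 CPM. The 4 values overlapped (log2 0.06, 95% interval −0.30 to 0.41, FDR 0.774), and the sign turned under 5 other settings, to between −0.035 and −0.134. SGK1, the serum- and glucocorticoid-regulated kinase, was scarce, with 62 and 45 counts against 12 and 19, or 2.94 and 2.06 CPM against 1.35 and 3.77 CPM. Its interval of −1.34 to 1.25 (log2 −0.05, FDR 0.949) allows a change of more than 2-fold both ways. Neither a change nor its absence can be read from it. The CPI-455 replicates of SGK1 lay on either side of the vehicle replicates, and with 1 library left out its change ran from −0.926 to 0.575. CAMKK2, the kinase upstream of AMPK, and STK39, a kinase of cation-chloride cotransporters, passed the FDR at −0.51 (FDR 0.00803) and −0.97 (FDR 0.00053) without reaching 2-fold. INPP4B, a phosphoinositide phosphatase, was not called at −0.46 (FDR 0.457), but without CPI-455 replicate 2 it was −1.42 and called.

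C1orf116 (ENSG00000182795, chr1:207018521-207032756, minus strand), named for its regulation by androgen as SARG, had the largest fitted fall of the members with counts in all libraries. It had 582 and 601 counts with vehicle, against 3 and 5 with CPI-455, or 27.6 and 27.5 CPM against 0.337 and 0.991 CPM. It fell 46.7-fold (log2 −5.55, 95% interval −6.39 to −4.70, FDR 2.90e-06), a change that 1.10% of all tested genes reached or passed on the lower side. With so few counts left, the change was −4.80 without CPI-455 replicate 1 and −6.36 without CPI-455 replicate 2. TPD52, a protein of vesicle traffic, was at −0.03 (95% interval −0.37 to 0.32), and MPHOSPH9, a phosphoprotein of the M phase, at 0.08 (95% interval −0.18 to 0.34). The long non-coding RNA PART1 had 3 and 5 counts against 2 and 2, too few to test, with a ratio of vehicle to CPI-455 of 0.649 (95% counting interval 0.174 to 2.94).

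Called genes were found at both ends of the range of levels. Of the 10 members highest per kb of exon with vehicle, 2 were lower, 1 was higher and 7 were not called, and of the 10 lowest tested members 5 were lower, 1 was higher and 4 were not called. Over all tested genes 21.3% were called lower and 21.0% higher. The 5 include PTGER4, HPGD and ACP3, which passed the filter on low counts only through the vehicle libraries. ABCC4 passed from the 4th to the 17th place in level per kb (15.7 to 3.57 CPM per kb), FKBP5 from the 6th to the 13th (13.7 to 4.77) and C1orf116 from the 23rd to the 34th (5.005 to 0.121). MICAL1 passed from the 26th to the 9th (2.59 to 8.26). SLC43A1 and NDRG1, not called, stayed within the first 3 places in both groups. Over the 37 genes, Spearman's rank correlation of the fold change was 0.26 with vehicle level per kb, 0.28 with exon GC content and 0.12 with exon length, against −0.26, 0.15 and −0.25 over all tested genes. These are correlations across genes of the same 4 libraries and genes are not independent replicates. The vehicle level is also the denominator of the fold change, so both share its error.

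**Figure D4:**
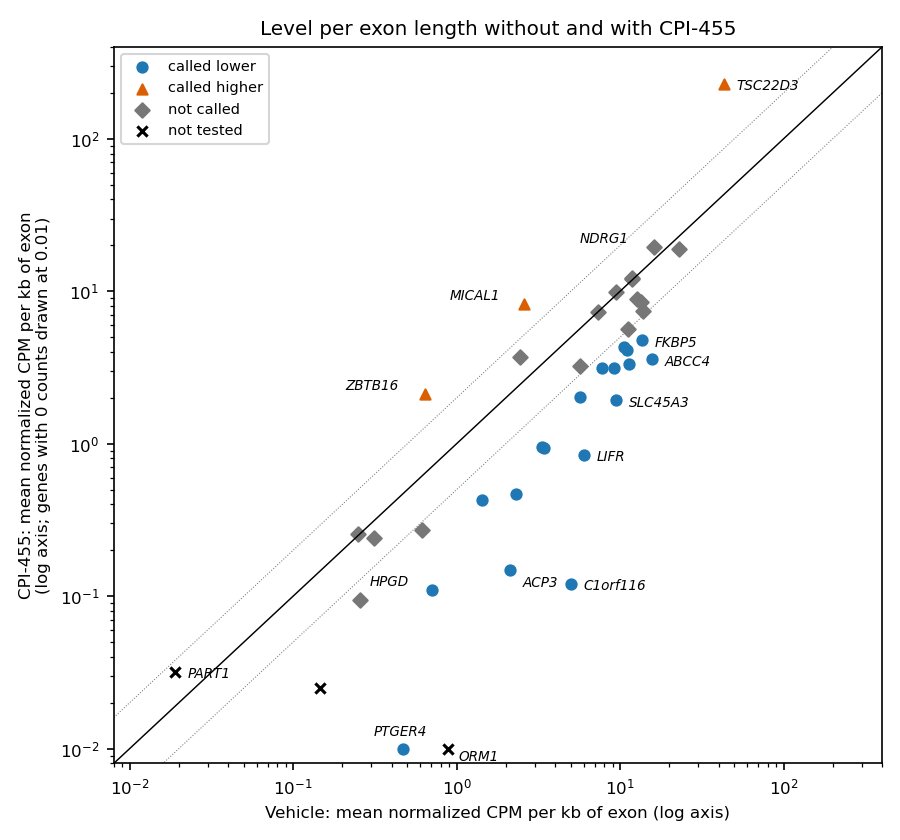
Mean normalised CPM per kb of exon with vehicle (x axis) and with CPI-455 (y axis), both on log scales, 1 point per gene and coloured by call; the solid line marks equal levels, the dotted lines a 2-fold difference, and genes with 0 counts are drawn at the lower edge. Called genes below the line span levels from under 1 to about that of ABCC4 (15.7 CPM per kb with vehicle), and TSC22D3 stands alone at the upper right.

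Several steroid receptors were measured in the same libraries. NR3C1, the glucocorticoid receptor, had 1110 and 1211 counts with vehicle, against 157 and 88 with CPI-455, and was called lower (log2 −1.62, SE 0.16, FDR 2.12e-05). NR3C2, the mineralocorticoid receptor, passed the FDR at −0.72 (FDR 0.0309) without reaching 2-fold. ESR2 had 6 and 17 counts with vehicle, against 13 and 16 with CPI-455, and was called higher at 2.05 (FDR 0.0387). It passed the filter on low counts only with the CPI-455 libraries, where it is high. Of all tested genes 21.3% were called lower and 21.0% higher. ESR1 and PGR had at most 5 counts in any library and were not tested. Whether the level of any of these receptors had a part in the changes of the 40 genes was not tested.

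A wider list of 76 other androgen-response genes, of which 75 were tested, gave 27 lower (36%), 7 higher (9.33%) and 41 not called, with a median change of −0.48 (interquartile range −1.53 to 0.10). Over all tested genes 21.3% were called lower and 21.0% higher, with a median of −0.04. Well-measured genes of this list with large called falls included ABHD2, a hydrolase (8.82-fold, log2 −3.14), and AKAP12, an anchor of protein kinase A (−2.44). Among genes averaging 5 or more log2 CPM, the 4 largest rises were ADAMTS1, a secreted metalloprotease (2.56), IDI1 and HMGCS1 of the isoprenoid pathway (2.52 and 1.54) and SAT1 of polyamine breakdown (2.18). The FDR of these genes lay between 6.64e-07 and 4.20e-06. The difference between both lists was not tested.

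**Figure D5:**
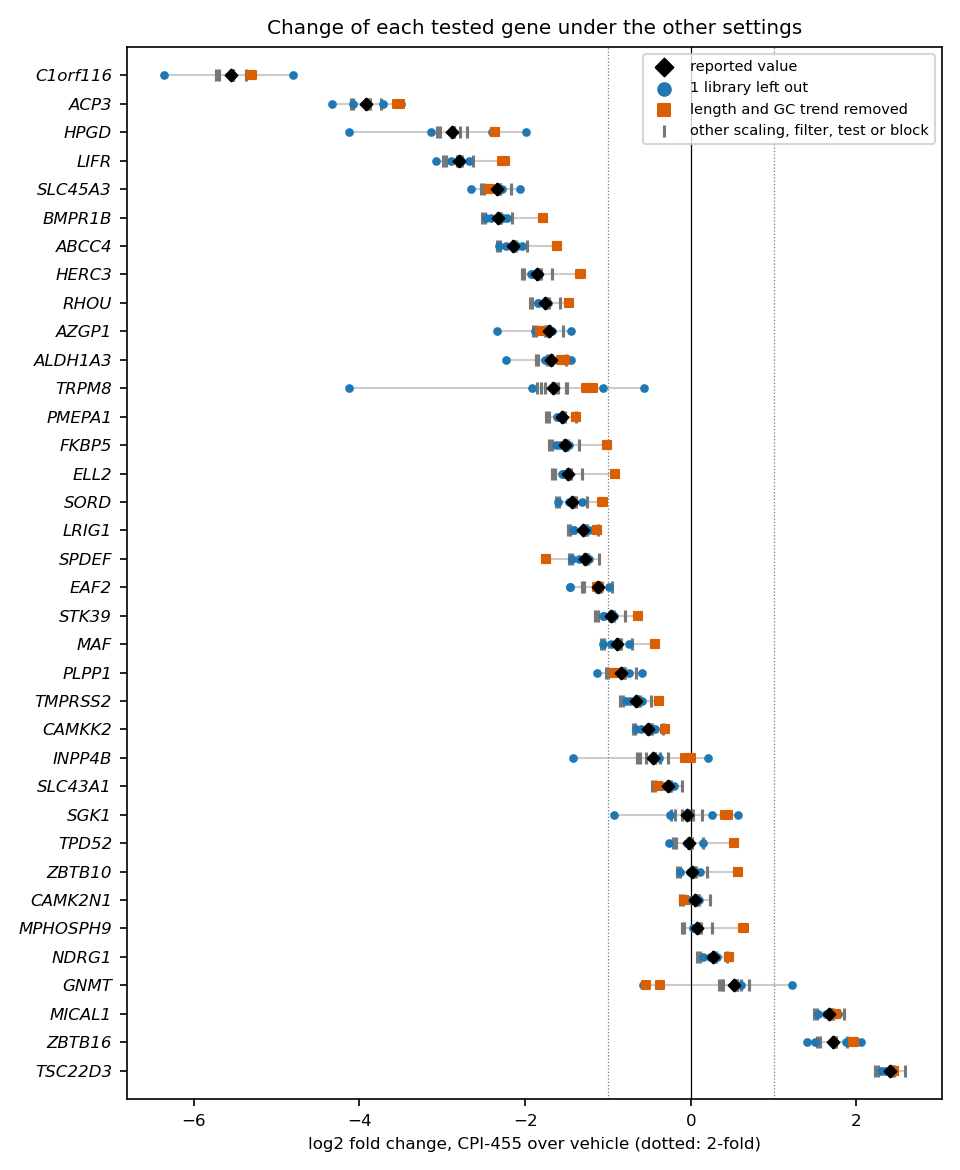
Log2 fold change of CPI-455 over vehicle (x axis) of each tested gene except PTGER4 as reported (black diamonds), with 1 library left out (blue), after removal of the exon length and GC trend (orange) and under other scalings, filters, tests or a replicate block (grey ticks). C1orf116, ACP3, LIFR, ABCC4 and TSC22D3 keep their distance from 0 under every setting drawn, HPGD and TRPM8 depend on which library is left out, and genes that cross 0 are those not called.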

How the data were processed

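RNA was measured in 4 LNCaP cultures, 2 per group, described in the methods as biological replicates. Per the file headers and labels, the authors trimmed reads with TrimGalore, aligned them to GRCh38 with STAR and made the deposited values with featureCounts v1.5.0-p1 on Ensembl annotation, as raw counts per gene without normalization. Strand was not used and fragments on several genes or places were not counted, so overlapping genes and near-identical copies are less sure.

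The counts of all 60675 genes were analysed in R 4.3.3 by edgeR 4.0.16, with TMM scaling, the filterByExpr filter (minimum 10 counts) and a quasi-likelihood test (glmQLFit, glmQLFTest) of the group alone, adjusted by Benjamini-Hochberg over 17600 genes. The procedure was tested on simulated counts in which few genes changed, as many up as down. In these data 42.4% of tested genes were called, so that test does not check the scaling here. Same-numbered libraries did not deviate together (r = 0.04 over 17600 genes). Symbols were matched for 56558 genes, and exon GC content was read from GRCh38. CPM values are scaled by edgeR. Intervals on counts cover counting error alone. Replicates that share a preparation would make p-values too small.

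The 40 members, their roles and the other gene lists were chosen with earlier results of these data known. Members that were called, 6 well-known ones and those not tested are given with every library's value, the rest by fold change. Outside the members, the steroid receptors, the luminal markers as a group, and the 4 largest called changes in each direction among other androgen-response genes averaging 5 or more log2 CPM are named. Some genes that this rule takes are not reported here. The search for elements within 50 kb was added after the data were seen. Alternatives were DESeq2 1.42.0, other scalings, filters and tests, a replicate block, a length and GC correction (mgcv 1.9.3), and leaving out each library. Promoter entries were not matched for ADAM7, CAMK2N1, ELL2, NDRG1, PLPP1, SORD, TMPRSS2, TPD52, ZBTB10 and ZBTB16.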

Additional observations from a re-analysis of the deposited data

How the results depend on the processing

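The counts of members called lower stayed within 1.5 times the reported 18: 18 with DESeq2, with RLE or upper-quartile factors, without mitochondrial genes and MALAT1, with the likelihood-ratio test and with the replicate block, 17 against a 2-fold threshold (glmTreat) and with the length and GC trend removed (also with the block), 21 with library totals alone, 21 without a filter, 12 with at least 10 counts in every library and 18 to 22 with 1 library left out. Those called higher were 3, or 4 without CPI-455 replicate 1. The replicate block, for numbers that do not pair the libraries (r = 0.04), changed no member's call. The members' median moved from −1.28 to −0.798 with at least 10 counts in every library, −1.01 without the length and GC trend (−1.006 with the block as well), −1.47 with library totals, −1.44 without a filter, −1.10 with upper-quartile factors and −1.422 to −1.268 with 1 library left out. Library totals moved the median of all genes by −0.19 and upper-quartile factors by 0.175. Beside HPGD, called genes lost a call in ELL2 (−0.916, or −0.919 with the block, without the trend) and in SPDEF (glmTreat, −1.28). STK39, MAF, PLPP1, TRPM8, INPP4B and GNMT gained a call under 1 to 4 settings each. Signs turned in genes that were not called: CAMK2N1 with the trend removed (−0.077, also with the block), library totals (−0.134), no filter (−0.099) and with 1 library left out (−0.035 to 0.102); GNMT with the trend removed (−0.377), with the block too (−0.543) and with 1 library left out (−0.577 to 1.216); INPP4B with 1 library left out (−1.422 to 0.21); MPHOSPH9 with library totals (−0.112) and no filter (−0.077); SGK1 with DESeq2 (0.027), the trend removed (0.452, or 0.412 with the block), upper-quartile factors (0.13) and with 1 library left out (−0.926 to 0.575); TPD52 with DESeq2 (0.000), at least 10 counts (0.02), the trend removed (0.521, or 0.52 with the block), upper-quartile factors (0.151) and with 1 library left out (−0.264 to 0.147); ZBTB10 with library totals (−0.171), no filter (−0.135) and with 1 library left out (−0.132 to 0.107). The cause was not tested, beyond the fewer genes or samples a setting leaves. A group left with 1 library was assumed to vary like the other. The lower depth with CPI-455 limits genes under about 1 CPM.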
